A study of Mus musculus with 6 samples.

Results

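The genes of classical MHC class I presentation were examined in astrocytes sorted from the brains of normoglycemic and hyperglycemic mice. The set was 10 of the 45777 genes listed, chosen by symbol: the heavy chains H2-D1 and H2-K1, the light chain B2m, the peptide transporter Tap1 and Tap2, the loading factor Tapbp, the immunoproteasome subunits Psmb8, Psmb9 and Psmb10, and the transactivator Nlrc5. All 10 had reads in every sample and were among the 22337 genes tested. None of the 10 passed the threshold for a change between STZ and vehicle. Nlrc5 had the largest difference, 1.70-fold higher in STZ (95% interval 1.16 to 2.49, edgeR adjusted p = 0.334), from 52 to 119 reads per sample. Its groups did not overlap, which with STZ higher also held for 8.64% of all tested genes. For every other gene of the set the groups overlapped. In each of those, the highest and lowest STZ samples lay further apart than the group means.

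All animals were male Aldh1l1 cre/ERT2; tdTomato fl/fl mice on a C57BL/6 background, listed as WT in the sample records, in which tamoxifen (75 mg/kg for 5 days) activates the red reporter tdTomato in cells where the astrocyte promoter Aldh1l1 drives the recombinase. At 8 weeks of age they received either streptozotocin once (STZ, 150 mg/kg), which kills pancreatic beta cells and so lowers insulin, or citrate buffer alone (vehicle), and brains were collected 21 days afterwards. STZ mice were kept in the study only if their blood glucose was raised. Each sample held tdTomato-positive cells pooled from 3 mice, and there were 3 samples per group. The only comparison was STZ against vehicle, which asks how hyperglycemia alters astrocyte gene expression.

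Total read counts ranged from 52529048 to 58749115 per sample. The 8 astrocyte markers summed to 20271 to 24180 CPM (reads of a gene relative to the reads of its library, after TMM scaling in edgeR), against 458 to 706 CPM for 10 microglia and macrophage markers. Markers of other cells were also read, namely 5849 to 17285 CPM for 4 choroid plexus markers, 1026 to 3007 CPM for 6 oligodendrocyte markers and 47.2 to 93.1 CPM for 5 neuron markers. Of the 5 T and NK cell markers, Cd3e and Ncr1 had 0 reads in STZ 1, which allows up to 0.0511 CPM, and the list summed to 2.95 to 5.80 CPM in vehicle and 1.91 to 3.93 CPM in STZ. In bulk samples, a change in the number of cells of a type and a change in RNA per cell cannot be told apart.

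MHC class I molecules display short peptides from inside the cell to CD8 T cells. Proteins are cut by the proteasome, whose catalytic subunits are replaced by Psmb8, Psmb9 and Psmb10 in the immunoproteasome. The peptides are pumped into the endoplasmic reticulum by the Tap1 and Tap2 heterodimer. There Tapbp (tapasin), with the chaperones calreticulin and Pdia3, holds the heavy chain and B2m next to the transporter until a peptide is bound. Nlrc5 is the coactivator of this gene program, acting at promoters that carry the S, X and Y boxes, and interferons are its classical inducers. In the healthy brain, class I genes are known to be expressed most strongly by endothelial cells and microglia.

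In the RefSeq annotation of GRCm38.p6, the assembly behind mm10, 7 of the 10 genes lay within 1348 kb of chromosome 17 (33919478 to 35267497), in the order Tapbp (chr17:33919478-33929290), H2-K1 (chr17:33996012-34000619), Psmb9 (chr17:34182030-34187330), Tap1 (chr17:34187556-34197225), Psmb8 (chr17:34198195-34201454), Tap2 (chr17:34204479-34216321) and H2-D1 (chr17:35263094-35267497). B2m was at chr2:122147687-122153082, Psmb10 at chr8:105935728-105938392 and Nlrc5 at chr8:94434335-94527272. B2m overlapped Patl2, Tapbp overlapped Gm19412, and Nlrc5 overlapped 9330175E14Rik, Gm51584 and Mir7072. Whether the reads were counted by strand is not given, and overlapping genes could not be separated.

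The promoters of the heavy and light chains are shown because they carry the boxes through which Nlrc5 acts, and that of Tap1 because it is shared with Psmb9. They are RefSeq sequences, the 200 bases before an annotated start site, read along the gene. H2-K1 had alternative start sites, and the stretch shown for it lies inside the gene span given above. Capitals mark matches, on either strand, to the NF-kB consensus, the interferon response core GAANNGAAA, the gamma-interferon site TTCNNNGAA, the X2 box core TGACG and the Y box core ATTGG. The H2-D1 stretch is chr17:35262894-35263093 on the plus strand, the H2-K1 stretch chr17:34000334-34000533 on the minus strand, the B2m stretch chr2:122147487-122147686 on the plus strand and the Tap1 stretch chr17:34187356-34187555 on the plus strand.
H2-D1: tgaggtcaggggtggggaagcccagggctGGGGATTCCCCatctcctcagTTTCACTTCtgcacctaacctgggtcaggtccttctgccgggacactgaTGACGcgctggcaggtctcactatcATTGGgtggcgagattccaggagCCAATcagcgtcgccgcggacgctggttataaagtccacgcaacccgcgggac
H2-K1: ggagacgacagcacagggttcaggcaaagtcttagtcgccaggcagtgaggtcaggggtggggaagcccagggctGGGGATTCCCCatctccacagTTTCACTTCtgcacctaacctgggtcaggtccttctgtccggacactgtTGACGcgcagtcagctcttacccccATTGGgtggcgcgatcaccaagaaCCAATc
B2m: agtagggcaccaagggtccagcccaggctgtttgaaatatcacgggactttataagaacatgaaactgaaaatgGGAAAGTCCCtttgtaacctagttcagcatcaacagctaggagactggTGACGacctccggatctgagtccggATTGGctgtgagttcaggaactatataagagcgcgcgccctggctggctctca
Tap1: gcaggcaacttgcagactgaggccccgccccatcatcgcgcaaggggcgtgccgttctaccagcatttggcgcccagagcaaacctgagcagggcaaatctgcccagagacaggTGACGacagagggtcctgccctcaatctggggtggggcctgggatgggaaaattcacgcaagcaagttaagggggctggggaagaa

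The heavy chain promoters were nearly alike, with 138 of 153 aligned bases identical (90.2%). Both held, in this order, an NF-kB match, an interferon response core, an X2 core and Y cores on either strand. The B2m stretch had the NF-kB match, the X2 core and a Y core but no interferon response core of these letters. Windows of 300 bases (250 before to 50 after the start) were given for 8 of the 10 genes. The X2 core was present for 5 of these 8 genes against 20.8% of 32851 mouse promoter windows, the Y core for 6 against 37.4%, the NF-kB consensus for 3 against 4.51%, the interferon response core for 2 against 7.52% and the gamma-interferon site for 1 (Psmb8) against 8.3%. No match overlapped a match to another motif, and the NF-kB matches of the heavy chains were each read on both strands with 1 base of offset. The windows of Tap1 and Psmb9 had 275 bases in common, as the start sites of these oppositely oriented genes were 226 bases apart. Their X2 and Y matches were the same sites, each counted for both genes. With the heavy chain promoters also nearly alike, the counts over the 8 genes are not counts of separate promoters. Tap2 and Nlrc5 have no sequence here.

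Per transcript length, the 10 genes spanned a wide range of levels. Light and heavy chains were the most abundant, with a mean of 236.7 FPKM (fragments scaled to transcript length and mapped reads) for B2m (SD 48.9, n = 6), 142 FPKM for H2-D1 (SD 47.8) and 119 FPKM for H2-K1 (SD 14.4). These levels exceeded those of 99.0%, 98.2% and 97.7% of all tested genes. Tapbp (52.7 FPKM, SD 3.42), Tap2 (26.4 FPKM, SD 2.12) and Psmb10 (22.6 FPKM, SD 1.17) came next. Psmb8 (12.5 FPKM, SD 4.31), Tap1 (6.04 FPKM, SD 0.984) and Psmb9 (5.42 FPKM, SD 1.58) were lower, and Nlrc5, at 0.163 FPKM (SD 0.0552), exceeded only 14.1% of tested genes. Between neighbours in this order, the ranges over the 6 samples overlapped for B2m and H2-D1, H2-D1 and H2-K1, Tap2 and Psmb10, and Tap1 and Psmb9, but not for the other 5 neighbouring pairs.

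**Figure D1:**
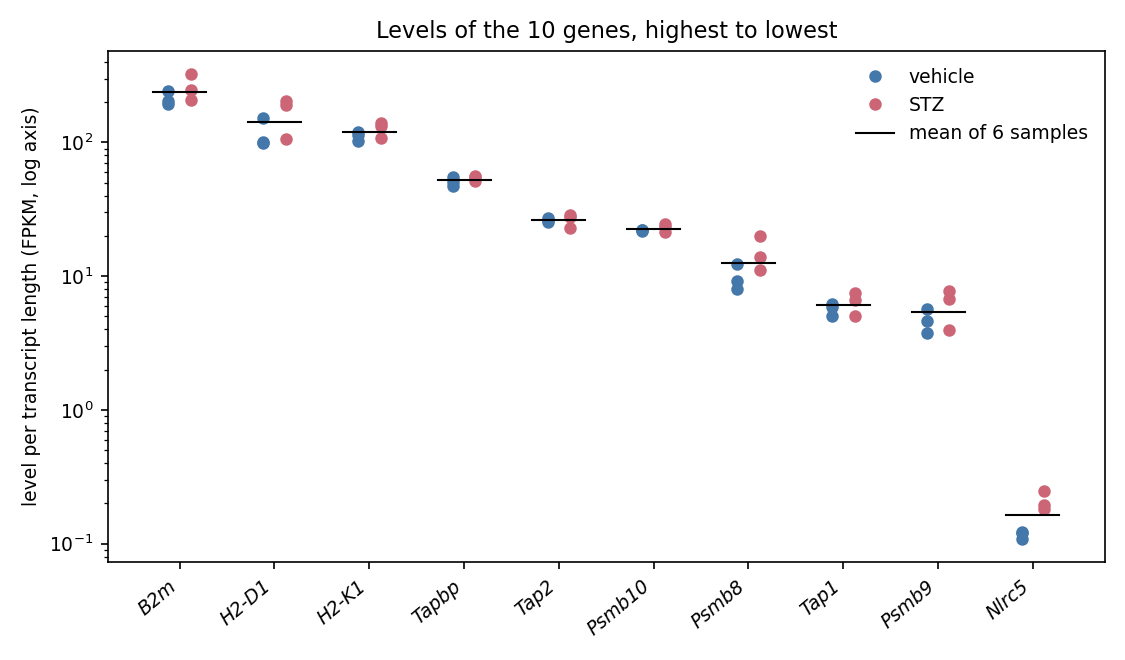
Level of each gene in FPKM on a log axis, one point per sample (blue, 3 vehicle; red, 3 STZ), with the mean of the 6 samples as a black line. B2m stood at 193 to 325 FPKM and Nlrc5 at 0.109 to 0.249 FPKM, and the samples of the groups intermingle for every gene but Nlrc5.

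The transporter subunits were not equally abundant. Tap2 exceeded Tap1 in all 6 samples, at 3.83 to 5.08 times its FPKM. The balance of the heavy chains, by contrast, changed between samples. H2-D1 stood at 1.27 times the FPKM of H2-K1 in vehicle 3, 1.43 times in STZ 1 and 1.48 times in STZ 2, and stood at 0.897, 0.960 and 0.986 of H2-K1 in vehicle 1, vehicle 2 and STZ 3. H2-D1 and H2-K1 belong to a family of close copies, and 14.3% and 8.79% of the 50-base words of their transcripts also occur in another gene, mostly other H2 genes, so that part of their reads could have been split between copies. The share was 2.0% or less for the other 8 genes.

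For the heavy chains, H2-D1 was read at 191, 186 and 284 CPM in vehicle 1, 2 and 3 and at 343, 372 and 194 CPM in STZ 1, 2 and 3. STZ 1 and STZ 2 were above every vehicle sample, but STZ 3 was level with vehicle 1 and vehicle 2, so the groups overlapped. The means were 220.5 ± 55.4 CPM in vehicle and 303 ± 95.3 CPM in STZ (SD, n = 3). The log2 fold change was 0.46 (SE 0.26, 95% interval -0.15 to 1.07, edgeR adjusted p = 0.542). H2-K1 spanned a narrower range, with 206, 189 and 216 CPM in vehicle and 230.1, 245 and 196 CPM in STZ, and again STZ 3 lay among the vehicle samples. Its log2 fold change was 0.13 (SE 0.10, 95% interval -0.10 to 0.37, adjusted p = 0.635). With the counts of both heavy chains added, the log2 fold change was 0.31 (SE 0.19, 95% interval -0.12 to 0.74, adjusted p = 0.554).

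B2m, the invariant light chain that every class I molecule needs, was read at 189, 179.8 and 227 CPM in vehicle and 220.0, 290.4 and 187 CPM in STZ. STZ 2 stood above the other 5 samples, and vehicle 3 exceeded both STZ 1 and STZ 3. Its log2 fold change was 0.23 (SE 0.17, 95% interval -0.16 to 0.61, adjusted p = 0.628). The ratio of both heavy chains to B2m, in FPKM, was 1.07 ± 0.0352 in vehicle and 1.13 ± 0.153 in STZ (SD, n = 3). The vehicle ratios were 1.06, 1.04 and 1.11, and the STZ ratios were 1.31, 1.06 and 1.03, so that only STZ 1 departed from the rest. The difference was within the spread of the samples (two-sided exact permutation test, p = 0.8, adjusted p = 1 over 4 ratios), in a design where 3 against 3 samples cannot give a p below 0.1.

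The genes that supply and load peptides differed little. Tap1 was read at 18.8, 15.9 and 19.7 CPM in vehicle and 22.9, 20.5 and 15.6 CPM in STZ, with STZ 3 the lowest of all samples (log2 fold change 0.12, SE 0.16, adjusted p = 0.816). Tap2 was read at 71.1, 68.5 and 73.5 CPM in vehicle and 74.3, 72.1 and 60.1 CPM in STZ, and was the only gene of the 10 with a negative log2 fold change (-0.05, SE 0.09, adjusted p = 0.881). Tapbp stayed between 141 and 165 CPM in all 6 samples (log2 fold change 0.03, SE 0.08, adjusted p = 0.907). For Tap2 the 95% interval of the log2 fold change ran from -0.26 to 0.17 and for Tapbp from -0.15 to 0.21, both short of a 1.5-fold difference in either direction.

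The immunoproteasome subunits, which are built into new proteasomes together, did not vary alike. Psmb8 was read at 12.3, 10.6 and 16.4 CPM in vehicle and at 17.7, 25.6 and 14.3 CPM in STZ. STZ 2 held the highest value and vehicle 2 the lowest, and vehicle 3 lay above STZ 3. With means of 13.1 ± 2.98 and 19.2 ± 5.79 CPM (SD, n = 3), its log2 fold change was 0.55 (SE 0.24, 95% interval -0.02 to 1.12, adjusted p = 0.459). Psmb9 was read at 3.79, 4.30 and 5.85 CPM in vehicle and 5.82, 7.68 and 3.76 CPM in STZ, where STZ 3 was the lowest sample and STZ 2 the highest (log2 fold change 0.31, SE 0.30, adjusted p = 0.723). Psmb10 did not follow them, and stayed between 28.7 and 32.5 CPM (log2 fold change 0.01, SE 0.08, 95% interval -0.17 to 0.19, adjusted p = 0.975).

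**Figure D2:**
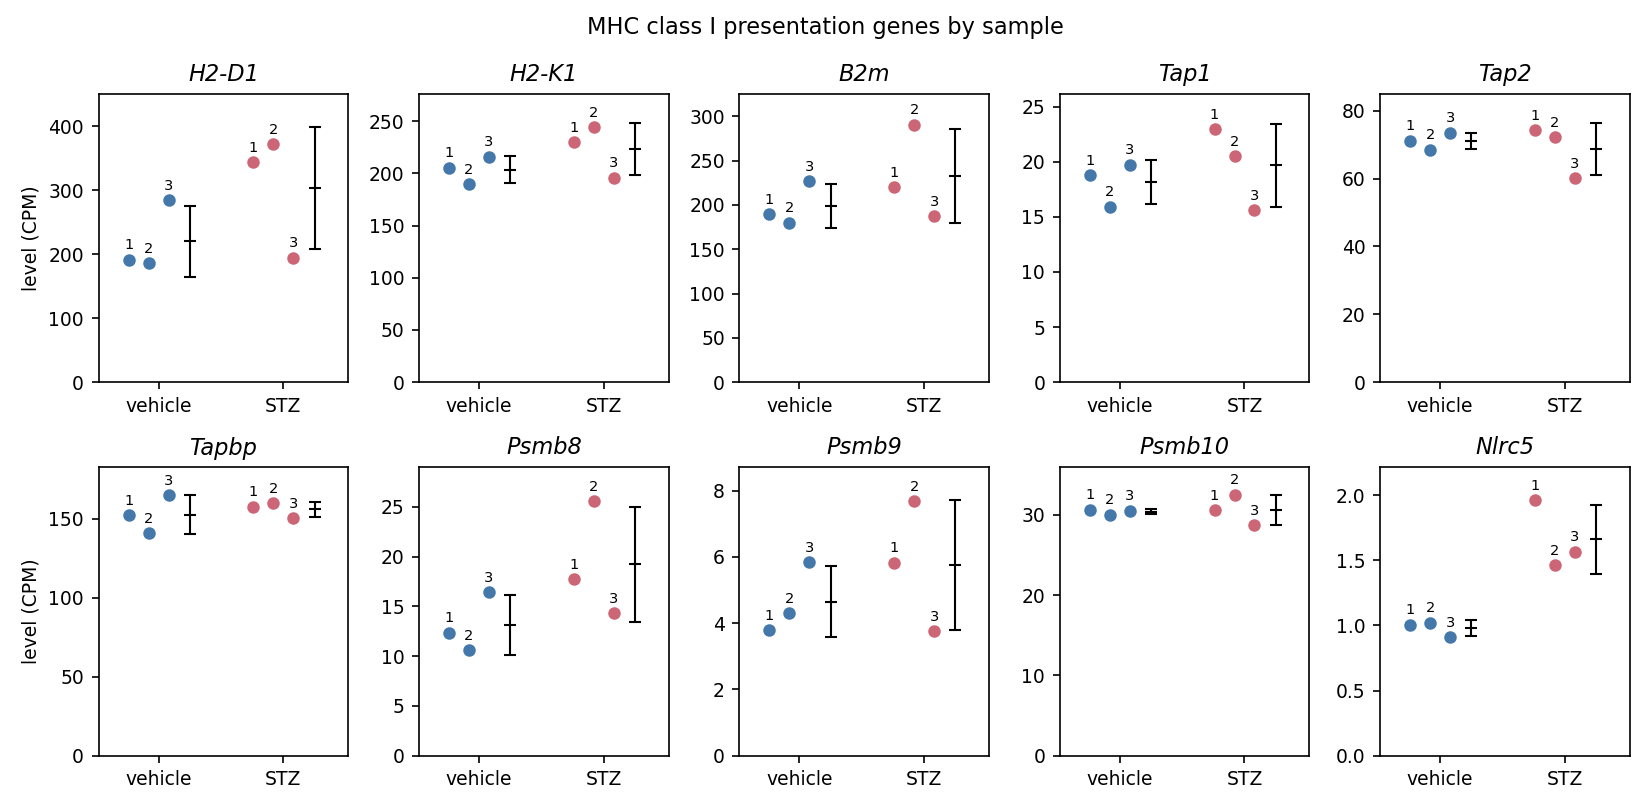
Level of each gene in CPM by sample, one point per sample (blue, vehicle 1 to 3; red, STZ 1 to 3, numbered), with the group mean and SD in black beside the points. The groups overlap in 9 panels and are apart in the Nlrc5 panel, where vehicle lies at 0.908 to 1.02 CPM and STZ at 1.46 to 1.96 CPM.

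Each immunoproteasome subunit takes the place of a constitutive one, so their ratio was followed as well. In FPKM, Psmb8 stood at 0.0863 ± 0.0298 of Psmb5 in vehicle and 0.105 ± 0.0302 in STZ (SD, n = 3), and Psmb9 at 0.0317 ± 0.00501 and 0.0368 ± 0.0129 of Psmb6. Psmb10 stood at 0.317 ± 0.0353 and 0.311 ± 0.0390 of Psmb7, several times the share of the other subunits in either group. None of the ratios differed beyond the spread of the samples (two-sided exact permutation tests, p = 0.5, 0.8 and 1, each adjusted p = 1 over 4 ratios). The highest Psmb8 and Psmb9 ratios, 0.139 and 0.0474, both came from STZ 2. The log2 difference of the Psmb8 ratio was 0.31, and stood at 0.02 without vehicle 2, 0.09 without STZ 2, 0.48 without STZ 3 and 0.55 without vehicle 3.

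**Figure D3:**
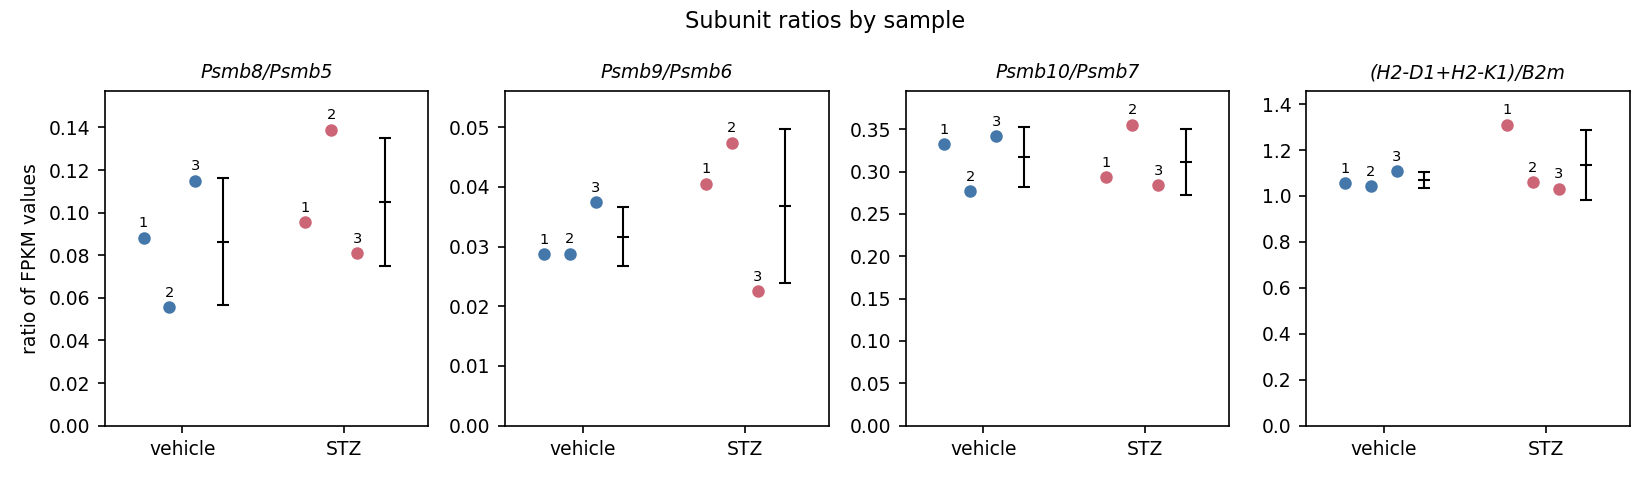
Ratio of FPKM values for each immunoproteasome subunit over the constitutive subunit it replaces, and for both heavy chains over B2m, with one numbered point per sample (blue, vehicle; red, STZ) and the group mean and SD in black. The groups overlap in all 4 panels.

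Nlrc5, the regulator of the set, was the only gene of the 10 whose groups did not overlap. It was read at 1.01, 1.02 and 0.908 CPM in vehicle and at 1.96, 1.46 and 1.57 CPM in STZ, from 54, 53 and 52 reads against 119, 85 and 92. Every STZ sample was above every vehicle sample, and the vehicle samples were close to each other. The means were 0.979 ± 0.0619 CPM and 1.66 ± 0.265 CPM (SD, n = 3), a log2 fold change of 0.76 (SE 0.24, 95% interval 0.21 to 1.32). Its edgeR p was 0.013, the 871st smallest of 22337, and its adjusted p was 0.334, which did not pass. DESeq2 gave an adjusted p of 0.252. Its log2 fold change was 0.63 without STZ 1, where its unadjusted p was no longer under 0.05, and 0.21 by limma on log2(TPM + 1), where the added 1 exceeds its level. Counting error alone was considerable at this depth, as the exact Poisson interval ran from 38.8 to 68.2 reads in vehicle 3 and from 67.9 to 105 reads in STZ 2.

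Set against all genes, 0 of the 10 were called by edgeR (a fold over 1.5 with an adjusted p under 0.05), where 0.0224% of tested genes were called, and 0 by DESeq2, where 1.05% were. At an unadjusted p under 0.05, edgeR found 1 of the 10 higher in STZ (Nlrc5) against 5.63% of tested genes and 0 lower against 5.65%. DESeq2 found 3 of the 10 higher in STZ at that level (H2-D1, Psmb8 and Nlrc5) against 5.53% of tested genes. Groups that did not overlap, with STZ higher, were found for 1 of 10 against 8.64%, and with STZ lower for 0 against 9.85%. The log2 fold change was positive for 9 of 10 against 51.9%, with a median of 0.18 against 0.01 over all tested genes. Since these genes shared their sample profile, as described next, their directions were not separate observations.

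The sample profile recurred from gene to gene. For 8 of the 10 genes, all but Psmb10 and Nlrc5, the highest 3 samples were STZ 1, STZ 2 and vehicle 3, an order noticed in the data and shared by 8.69% of all tested genes. STZ 3 was the lowest sample for 4 of the 10 against 17.4% of tested genes. Averaged over the 10 genes, the log2 CPM stood at -0.16, -0.23 and 0.04 in vehicle 1, 2 and 3 and at 0.21, 0.31 and -0.15 in STZ 1, 2 and 3, relative to the mean of all samples. Without STZ 3, the groups no longer overlapped for 5 of the 10 (H2-D1, H2-K1, Tap1, Psmb8 and Nlrc5) against 17.2% of tested genes with STZ higher, and without vehicle 3 for 3 (H2-D1, Psmb8 and Nlrc5) against 16.5%. Without STZ 3 the log2 fold change was 0.70 for H2-D1, 0.54 for Psmb9, 0.36 for B2m and 0.22 for H2-K1. Without STZ 2 it was 0.29 for H2-D1, 0.04 for Psmb9, 0.04 for B2m and 0.06 for H2-K1. For Psmb8 it was 0.29 without STZ 2 and 0.73 without vehicle 3. None of these fits called any of the 10 genes.

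Markers of other cell types moved with this profile in part, and others divided by group as Nlrc5 did. The 12 endothelial markers summed to 73.8, 107 and 246 CPM in vehicle and 431, 328 and 241 CPM in STZ, and all 12 had a higher mean in STZ, 10 of them at an unadjusted p under 0.05 and none called by edgeR. The 3 neutrophil markers (S100a8, S100a9 and Ly6g) summed to 62.9, 75.7 and 415 CPM in vehicle and 528, 562 and 258 CPM in STZ, and each had STZ 1, STZ 2 and vehicle 3 as its highest samples, as did 6 of the endothelial markers. The other 6 endothelial markers (Cdh5, Flt1, Tek, Ly6c1, Slco1a4 and Icam2) had every STZ sample above every vehicle sample. The 6 pericyte and smooth muscle markers summed to 132 to 177 CPM in vehicle and 162 to 212 CPM in STZ, in the same sample order as the endothelial sum. Among them Acta2 (log2 fold change 1.30, SE 0.15) and Rgs5 (1.02, SE 0.33) also had no overlap between the groups. The groups overlapped for Abcc9 (log2 fold change 0.87), Kcnj8 (0.50), Vtn (0.07) and Pdgfrb (-0.08). Of all tested genes, 8.64% had no overlap with STZ higher. DESeq2 called Acta2, Rgs5 and the endothelial marker Nostrin higher and the macrophage marker Mrc1 lower in STZ (adjusted p = 1.6e-11, 0.0283, 0.0497 and 0.0329), and edgeR called none of them. The microglia and macrophage sum was 706, 482 and 543 CPM in vehicle and 525, 685 and 458 CPM in STZ, and the groups overlapped. No endothelial, pericyte, neutrophil or microglia marker was at 0 in any sample. Vehicle 3 and STZ 3, each a single pool, had nearly the same endothelial sum (246 and 241 CPM). Single vascular markers differed between them in both directions. Cdh5 stood at 0.7855 and 1.45 CPM, Acta2 at 22.7 and 45.6 CPM, and Cldn5 at 50.25 and 40.8 CPM. In these samples Nlrc5 stood at 0.908 and 1.57 CPM and H2-D1 at 284 and 194 CPM. The part of these cells in the class I levels, Nlrc5 included, was not tested.

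**Figure D4:**
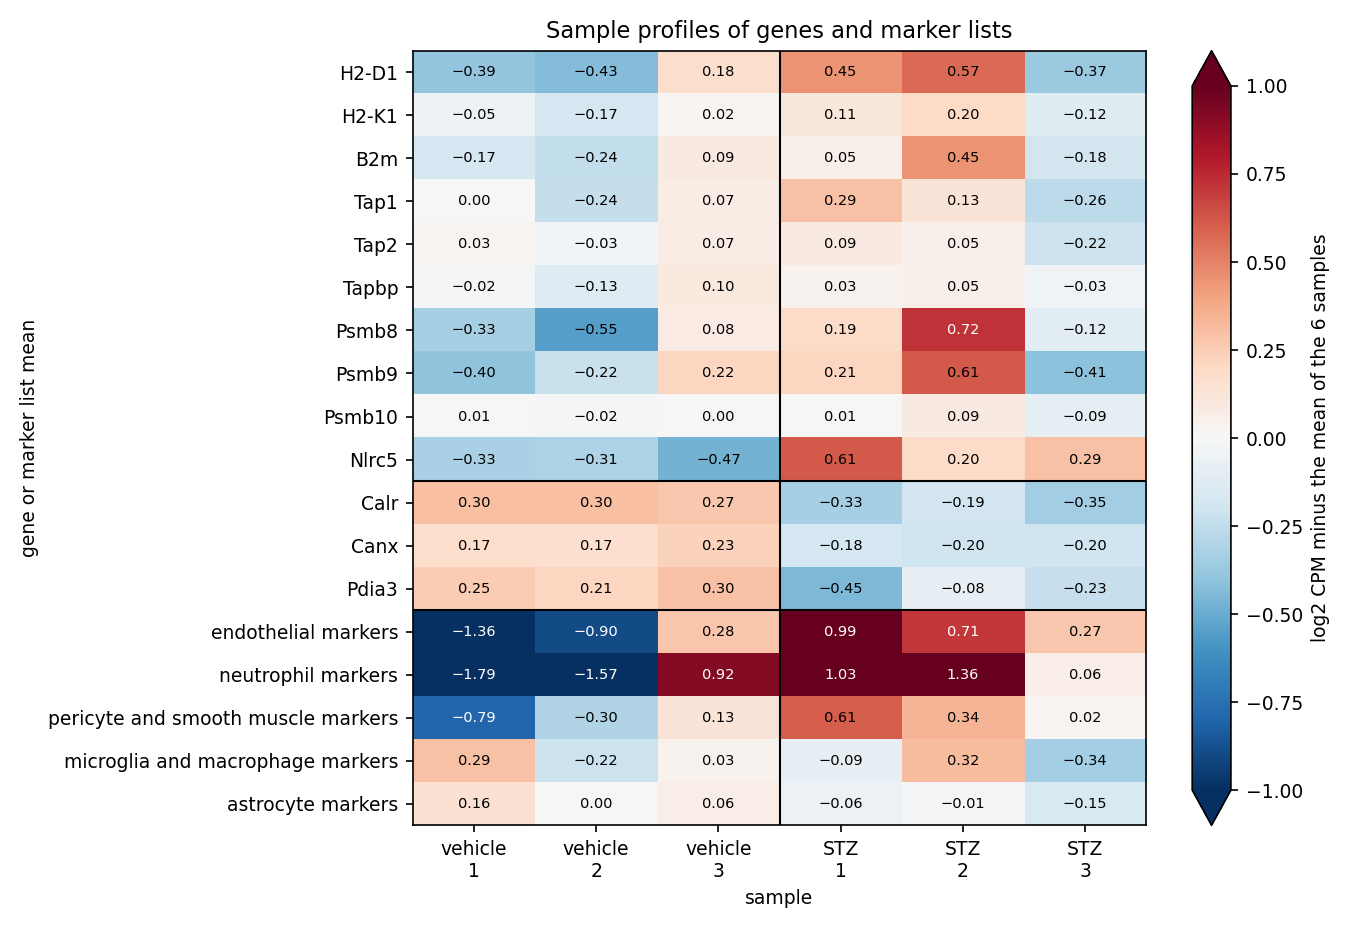
Log2 CPM relative to the mean of the 6 samples for the 10 class I genes (top), 3 chaperones of peptide loading (middle) and the mean of each marker list (bottom), with red above and blue below the mean and values past 1 in either direction drawn in the end colour. Most class I rows and the neutrophil row are highest in STZ 1, STZ 2 and vehicle 3. The endothelial row is highest in STZ 1 and STZ 2, and Nlrc5 and the chaperones divide by group.

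Outside the set and the lists below, the 5 genes closest to the mean profile of the 10, among 10352 with a mean of at least 10 CPM, were Rasgrp1, Btg2, Akap13, Prkcd and Scarb1. Their root mean square difference from it over the 6 samples was 0.0427, 0.0531, 0.0541, 0.0550 and 0.0561 on the log2 scale. Rasgrp1, for example, was read at 19.6, 18.2 and 21.6 CPM in vehicle and was highest in STZ 2 at 26.7 CPM. None of the 5 was called.

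The chaperones that fold and load class I molecules went the other way. Of the 5 loading partners listed, 5 had a lower mean in STZ, though none was called. For 3 the groups did not overlap, against 9.85% of all tested genes with STZ lower. The same 3 had an unadjusted edgeR p under 0.05, against 5.65% of tested genes with STZ lower. Calr, the lectin chaperone calreticulin, was read at 702, 698 and 685 CPM in vehicle and 452, 497 and 446.5 CPM in STZ. All STZ samples were thus below all vehicle samples, and vehicle samples differed little (log2 fold change -0.58, SE 0.08, 95% interval -0.76 to -0.40, edgeR adjusted p = 0.117). Pdia3, the thiol oxidoreductase ERp57 of the loading complex, was read at 816, 793 and 840.2 CPM in vehicle and 501, 648 and 583 CPM in STZ (log2 fold change -0.50, SE 0.11, adjusted p = 0.227). Canx (calnexin), which folds the new heavy chain, was read at 346, 344 and 360.3 CPM in vehicle and 271, 267 and 268 CPM in STZ (log2 fold change -0.38, SE 0.06, adjusted p = 0.169). These chaperones serve many glycoproteins beside class I. DESeq2 gave adjusted p-values of 7.2e-07, 0.0049 and 0.0011 for Calr, Pdia3 and Canx, with fold changes that stayed under the 1.5-fold threshold. Calr missed that threshold only narrowly, with a DESeq2 log2 fold change of -0.5842. In edgeR fits with a sample left out, its log2 fold change ran from -0.63 to -0.55, on both sides of the threshold. Tapbpl, a peptide editor related to tapasin, and Erap1, which trims peptides, had log2 fold changes of -0.04 and -0.17 (adjusted p = 0.899 and 0.564).

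**Figure D5:**
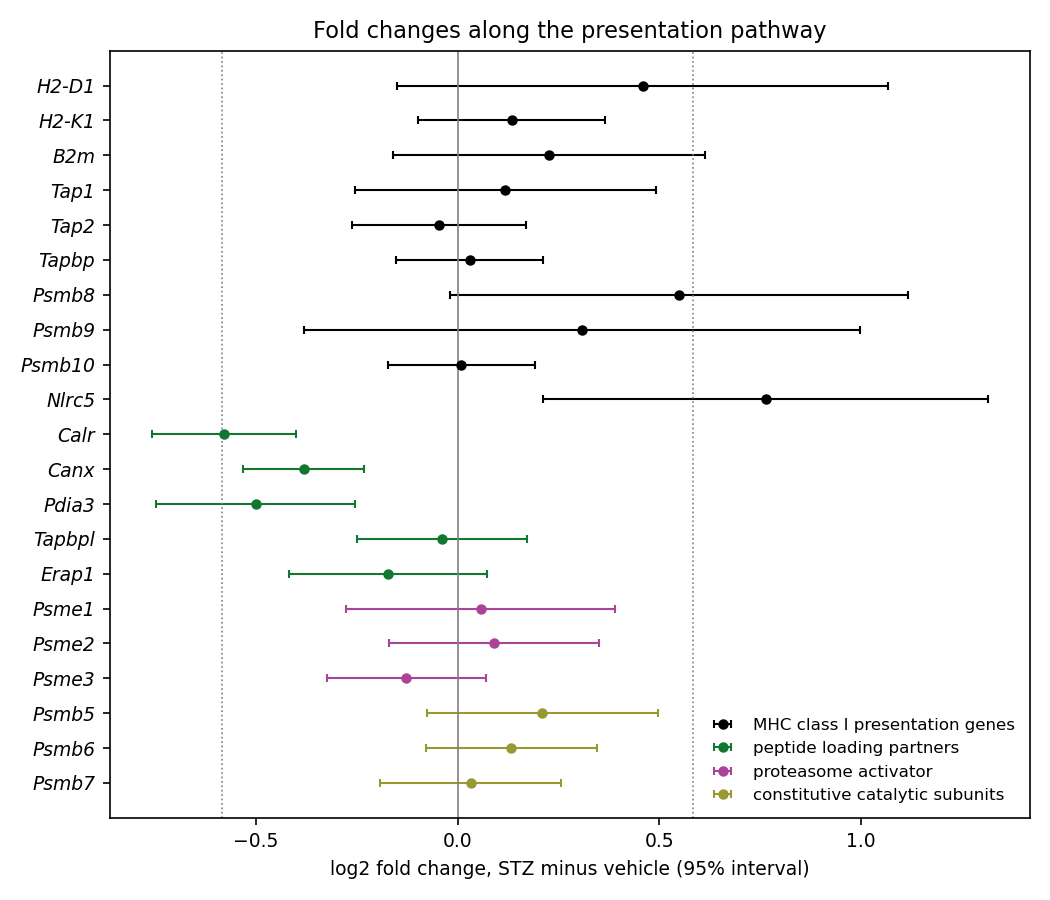
Log2 fold change (STZ minus vehicle) with its 95% interval from edgeR for the 10 class I genes (black), peptide loading partners (green), the proteasome activator (purple) and constitutive catalytic subunits (olive), where dotted lines mark a 1.5-fold difference. Intervals of Nlrc5, Calr, Canx and Pdia3 lie on one side of 0, and those of the other 17 genes include it.

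Proteasome genes outside the set were near the vehicle level. Of the activator genes Psme1, Psme2 and Psme3 and the constitutive subunits Psmb5, Psmb6 and Psmb7, 0 of 6 were called or reached an unadjusted p under 0.05. Their log2 fold changes ran from -0.13 (Psme3) to 0.21 (Psmb5, adjusted p = 0.551).

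Among the 12 other class I and class I-like genes, 0 were called. The mean was higher in STZ for 9, against 51.9% of tested genes. Of those, 2 had an unadjusted p under 0.05, against 5.63% of tested genes with STZ higher. H2-Q6 was read at 2.59, 2.97 and 4.08 CPM in vehicle and 6.63, 5.55 and 4.22 CPM in STZ, with no overlap (log2 fold change 0.76, SE 0.26, adjusted p = 0.356), but it shares much sequence with H2-Q7, whose log2 fold change was 0.38 (adjusted p = 0.521), and the values of both are uncertain for that reason. H2-T23, which encodes Qa-1, a ligand of NK cell receptors, was read at 18.4, 22.8 and 28.8 CPM in vehicle and 34.8, 40.6 and 24.8 CPM in STZ (log2 fold change 0.51, SE 0.22, adjusted p = 0.434). Its highest 4 samples came in the same order as those of H2-D1. Mr1 and H2-Q4 had log2 fold changes of 0.17 and 0.54 (adjusted p = 0.530 and 0.595).

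Of the 9 genes for factors that act at class I promoters, 0 were called and 7 had a higher mean in STZ, against 51.9% of tested genes. Irf2, an interferon regulatory factor, was read at 22.1, 20.1 and 19.3 CPM in vehicle and 26.7, 27.6 and 23.1 CPM in STZ, so that the groups did not overlap (log2 fold change 0.33, SE 0.10, adjusted p = 0.341). Rela, the p65 subunit of NF-kB, was higher by 0.16 on the log2 scale (adjusted p = 0.429). Rfxank, a subunit of the factor that binds the X box, was higher by 0.15 (adjusted p = 0.483). Each was also without overlap, which with STZ higher held for 8.64% of tested genes. Ciita, the class II counterpart of Nlrc5, and Nfkb1 had log2 fold changes of 0.39 and 0.13 (adjusted p = 0.615 and 0.627). None of these differences reached the 1.5-fold threshold.

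Interferon receptors and their signalling genes gave 0 of 12 called and 0 at an unadjusted p under 0.05, with a median log2 fold change of 0.03. The smallest p-values belonged to Jak1 (log2 fold change -0.18, adjusted p = 0.470), Irf9 (0.21, adjusted p = 0.539), Socs3 (0.60, adjusted p = 0.564), Ifnar2 (0.13, adjusted p = 0.567) and Ifnar1 (-0.09, adjusted p = 0.704). Of 10 interferon-induced genes outside antigen presentation, 0 were called by edgeR. At an unadjusted edgeR p under 0.05, 3 were higher in STZ, against 5.63% of tested genes. The mean was higher in STZ for 9, against 51.9% of tested genes. Log2 fold changes in the list ran from -0.26 to 1.51, with a median of 0.45. Isg15, a ubiquitin-like modifier, was read at 0.671, 1.02 and 1.14 CPM in vehicle and 2.98, 3.95 and 1.14 CPM in STZ (log2 fold change 1.51, SE 0.46, adjusted p = 0.329), and STZ 3 lay just above vehicle 3. Iigp1, an immunity-related GTPase, was read at 0.727, 1.27 and 1.57 CPM in vehicle and 3.66, 3.08 and 2.03 CPM in STZ (log2 fold change 1.29, SE 0.35, adjusted p = 0.302). Ifit1, an RNA-binding antiviral protein, had a log2 fold change of 0.93 (adjusted p = 0.350), and Oasl2 and Irf7 of 0.70 and 0.47 (adjusted p = 0.462 and 0.554). DESeq2 called Isg15, Ifit1 and Iigp1, with adjusted p-values of 0.0426, 0.0497 and 0.0269, and no other gene of these pathway lists. It called 1.05% of all tested genes. Each of the 3 was called in only 1 of the 15 settings run.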

How the data were processed

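RNA sequencing of tdTomato-positive astrocytes was analysed for 3 vehicle and 3 STZ samples, each a pool of 3 mice, grouped by the treatment in the sample records. The submitters' processing notes name Trimmomatic 0.38, HISAT2 2.1.0 and StringTie 2.1.3b with mm10. The annotation and the use of strand are not given in the sources used here, and the sample records and methods name different library kits. The deposited counts are whole-number reads per gene without normalization. The authors also deposited FPKM (per transcript length and mapped reads) and TPM values. FPKM served for levels between genes and for ratios, and TPM for alternatives.

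The test on counts was that of edgeR 4.0.16 (R 4.3.3, TMM, quasi-likelihood, group only, two-sided) over the 22337 genes with a count in every sample, the study's filter, with Benjamini-Hochberg adjustment. A call needed an adjusted p under 0.05 and a fold over 1.5, the study's threshold. SE was the log2 fold change over the root of F. Alternatives were DESeq2 1.42.0 (the study's tool), its size factors, no filter on low counts, filterByExpr, a replicate block, robust fitting, limma 3.58.1 on log2(TPM + 1) and log2(TPM + 0.1), no minimum fold, and leaving out each sample. Ratios were compared by exact permutation. The fits were tested on simulated data. At most 5 genes of each pathway list, those with the smallest p-values, are named, beside every class I gene chosen. Tables were made with Python 3.11.15. Genes, lists and tests were chosen with earlier results of these data known, and motifs with the promoters in view. Samples of one group are separate pools. Intervals of counts cover counting error only, and no pair of samples agreed within sampling noise (chi-square per gene 15.8 to 82.8).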

Additional observations from a re-analysis of the deposited data

How the results depend on the processing

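The count of 0 called class I genes was kept under all alternatives run. The number of called genes overall was 5, against 234 by DESeq2, 10 with robust fitting, 0 with the replicate block, 0 by limma at either pseudocount and 0 to 1 with a sample left out. The cause was not tested. The replicate numbers did not pair the samples (correlations of same-numbered deviations -0.101, -0.162 and -0.184, against a mean of 0.0743 between different numbers), and the fit with the replicate block gave a lowest adjusted p of 0.616 among the 10 genes. Of 142 alternative fold changes of these genes, 136 kept their direction and 6 reversed, all by leaving out 1 sample: Tap1 ranged from -0.0072 to 0.26 (log2), Tap2 from -0.10 to 0.043, Tapbp from -0.037 to 0.077 and Psmb10 from -0.036 to 0.053. Nlrc5 ranged from 0.63 to 0.85 with a sample left out. It stood at 0.61 by limma on log2(TPM + 0.1), and at 0.21 by limma on log2(TPM + 1), whose pseudocount exceeds its level. The class I genes without overlap numbered 1, or 1 to 5 with a sample left out. The log2 difference of ratios ranged from 0.023 to 0.55 for Psmb8/Psmb5, from -0.057 to 0.48 for Psmb9/Psmb6, from -0.13 to 0.033 for Psmb10/Psmb7 and from -0.032 to 0.14 for heavy chains over B2m with a sample left out. Of the pathway lists, only genes with an unadjusted edgeR p under 0.05 were followed under these settings, added after their values were seen. These kept every direction, but they had been picked for a difference in these same data. The other pathway genes were not followed. With 3 samples per group, differences the size of that of H2-D1 or Psmb8 have intervals that include 0. Nlrc5 rests on 52 to 119 reads per sample, and the part of depth in its not passing was not tested.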
